A study of Mus musculus with 32 samples.

Results

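Olig1, Olig2, Nkx2-2, Sox10, Pdgfra, Cspg4, Cnp, Mbp and Mag were followed in the brain of mice with and without a working Dhcr7 gene. These 9 genes were chosen by symbol, as genes that mark oligodendrocytes from their specification to early myelin, and all 9 were found among the 55291 gene symbols of the count tables. RNA was sequenced from brains of strain C57BL/6J. The wild-type brains (WT) were Dhcr7+/+ and the knockout brains (KO) were Dhcr7-/-. The stages were E12.5 and E14.5 (mid gestation, in embryonic days), then E16.5, and finally postnatal day 0 (PND0), with 4 libraries in each of the 8 combinations of genotype and stage. The labels name no treatment, and do not state which part of Dhcr7 the KO allele lacks, the litter or the sex. They also do not say that replicates came from separate animals, so p-values measure the spread between these libraries. Each stage was tabulated by itself, and a stage cannot be told apart from any run or date that came with it.

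Oligodendrocytes are the cells that wrap axons of the brain in myelin. Their precursors arise in the ventral neural tube under the influence of Sonic hedgehog, divide and migrate in response to platelet-derived growth factor, and then differentiate and switch on the genes of the myelin sheath. In the mouse most of this last step takes place after birth. Dhcr7 encodes the enzyme of the final step of cholesterol synthesis. Cholesterol is a main lipid of myelin and also modifies the hedgehog protein, and loss of DHCR7 in humans causes Smith-Lemli-Opitz syndrome.

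Library totals ran from 13868087 to 28318857 counts. Levels are given as counts-per-million values (CPM, scaled to the library total by the TMM method over all 32 libraries), with the SD over the 4 libraries of a group. A count of 0 allows up to 3 counts, which corresponded to 0.106 to 0.216 CPM depending on the library, and this limit covers counting error only. Dhcr7 itself was lower in every KO library than in every WT library of the same stage, with KO means that were 32.7% (E12.5), 18.9% (E14.5), 27.2% (E16.5) and 16.1% (PND0) of the WT means. Its counts are summed over the whole gene, so they do not show which exons remained. The brain label was set beside 6 neuron markers, whose summed level was 1447 to 2550 CPM at E12.5 and 3781 to 4420 CPM at PND0. These markers do not tell regions apart, so they cannot show that every library holds the same parts of the brain. A list of 17 hindbrain and spinal cord markers summed to 0.658 to 17.6 CPM in WT at E16.5. At PND0 it summed to 1.74 to 11.2 CPM in WT and 0.240 to 0.594 CPM in KO. The part of such regional differences in the results was not tested. In these bulk samples, fewer cells of a type and less RNA per cell cannot be told apart.

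In WT the 9 genes were followed over the 3 steps between stages, and their courses differed. From E12.5 to E14.5, 5 of the 9 changed past the threshold of an adjusted p of 0.05 (edgeR's quasi-likelihood test with Benjamini-Hochberg adjustment over all genes tested), where 57.8% of all genes did. Olig1 and Mbp rose (27.3% of all genes did), and Sox10, Pdgfra and Cnp fell (30.5%). From E14.5 to E16.5, 7 of 9 changed against 57.5% of all genes: Olig1, Sox10, Pdgfra, Cnp and Mag rose (29.3% of all genes), and Nkx2-2 and Mbp fell (28.2%). From E16.5 to PND0, 7 of 9 rose, against 26.0% of all genes tested, and none of the 9 fell, where 27.2% of all genes did. Those 7 were Olig1, Olig2, Sox10, Pdgfra, Cspg4, Cnp and Mbp, and in each of them all 4 WT libraries at PND0 lay above all 4 at E16.5, which held for 26.1% of all genes. Over the whole interval from E12.5 to PND0, 6 of 9 rose, where 34.5% of all genes did, and none fell, where 36.4% did. These comparisons share libraries (each stage serves in more than 1), so their counts are not independent of each other. The median log2 fold change of the 9 was 0.12, 0.64 and 0.65 over the 3 steps and 0.79 over the whole interval, beside -0.03, 0.01, -0.01 and -0.05 over all genes tested.

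**Figure D1:**
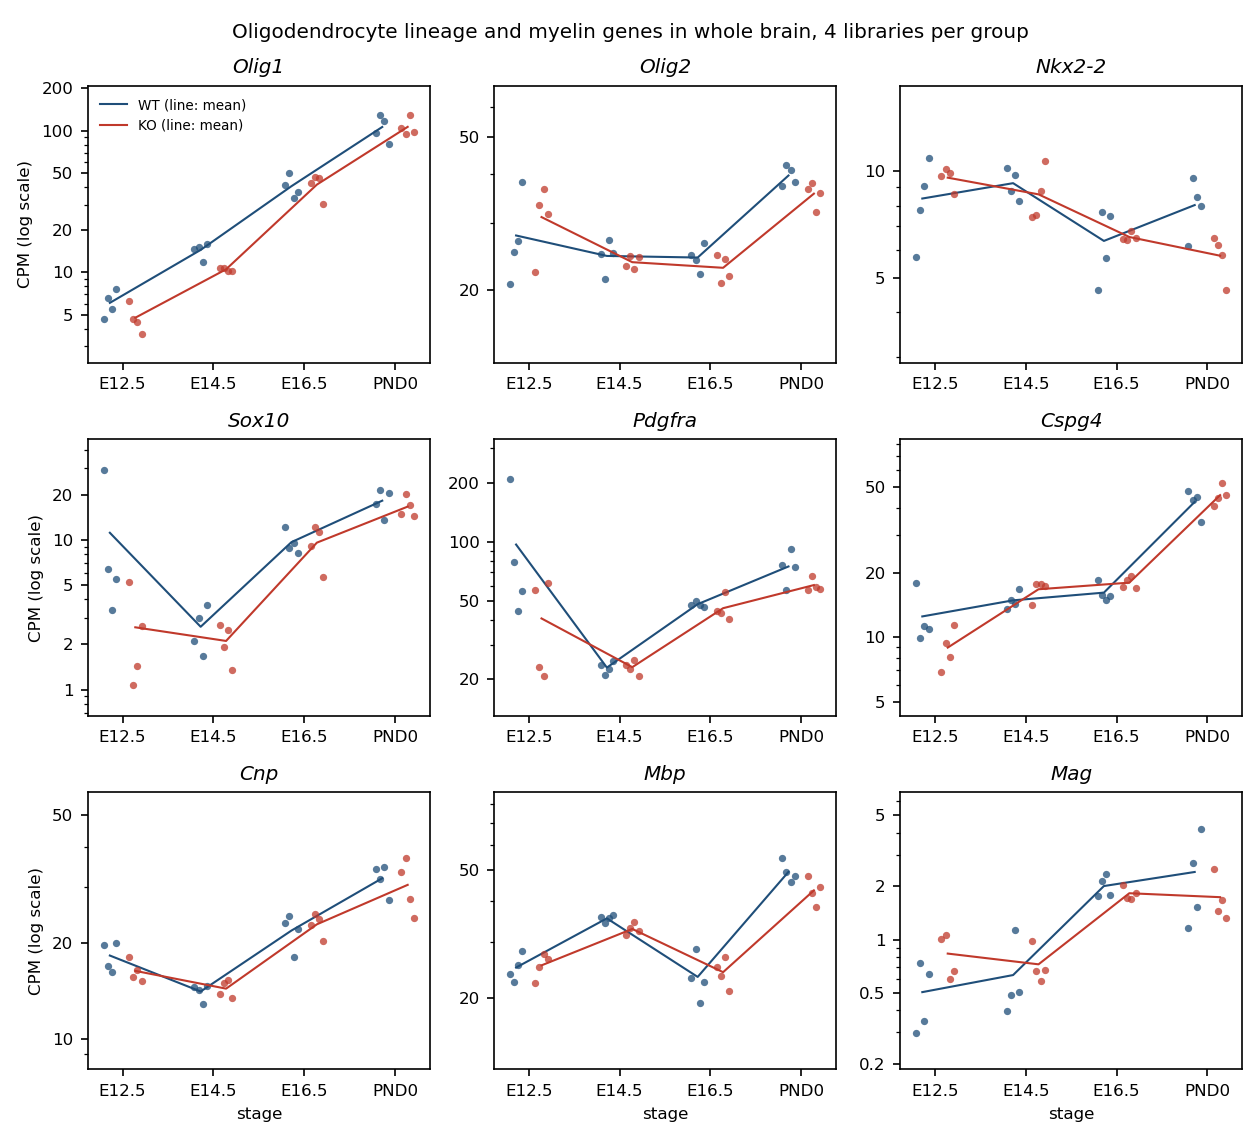
Level of each of the 9 genes in every library, in CPM on a log scale, by stage, with WT in blue and KO in red and lines through the group means. Olig1 climbs at every step, Sox10 and Pdgfra dip at E14.5, and 1 WT library at E12.5 lies far above the rest for Sox10 and Pdgfra.

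Olig1 and Olig2 encode basic helix-loop-helix transcription factors of the lineage, and Olig2 also specifies motor neurons. They are neighbours on chromosome 16 of build GRCm38, Olig2 at chr16:91225457-91228677 and Olig1 at chr16:91269772-91271933, both on the plus strand and 41094 bp apart. Because the pair are related in sequence, their coding regions were compared to see whether a read of 150 bases could be shared. The most similar stretch of 150 coding bases, in the helix-loop-helix region, has 96 identical bases (64.0%). The longest run shared by the transcripts is 17 bases. Olig1 is shown at chr16:91270256-91270405 and Olig2 at chr16:91226806-91226955, plus strand, GENCODE M21 transcripts, with identical positions in capitals.
Olig1: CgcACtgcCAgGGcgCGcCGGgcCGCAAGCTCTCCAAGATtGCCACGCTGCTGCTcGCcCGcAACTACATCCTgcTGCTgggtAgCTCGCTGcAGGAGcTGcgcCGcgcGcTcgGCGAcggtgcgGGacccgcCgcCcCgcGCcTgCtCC
Olig2: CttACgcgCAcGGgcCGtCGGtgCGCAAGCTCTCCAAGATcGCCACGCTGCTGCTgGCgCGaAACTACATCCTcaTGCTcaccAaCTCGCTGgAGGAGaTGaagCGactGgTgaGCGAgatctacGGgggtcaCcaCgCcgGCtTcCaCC

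The 2 neighbours followed different courses in WT. Olig1 was measured at 4.66, 6.56, 5.54 and 7.61 CPM in the 4 WT libraries of E12.5 and at 14.7, 15.2, 11.9 and 15.9 CPM at E14.5. At E16.5 it was 41.7, 50.1, 33.6 and 37.2 CPM, and at PND0 97.2, 129.5, 118.2 and 80.8 CPM. No library overlapped with one of the stage before, and each of the 3 steps was past the threshold, with log2 fold changes of 1.22, 1.5 and 1.33. From E12.5 to PND0 the log2 fold change of Olig1 was 4.11 (SE 0.186, adjusted p 3.77e-08). Olig2, in contrast, started at 27.8 ± 7.48 CPM (E12.5) and stood at 24.6 ± 2.35 (E14.5) and 24.3 ± 1.85 CPM (E16.5), with overlapping libraries and no change past the threshold. It then rose to 39.7 ± 2.45 CPM at PND0 (log2 fold change 0.65, SE 0.0917, adjusted p 3.83e-05). Both genes carry counts in every library. An exon of Olig1 overlaps the long noncoding RNA gene Gm15966 on the opposite strand over 157 nt, and since the strand setting of the counting is not given in the sources used here, reads from that stretch cannot be told apart.

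Levels were also set per kilobase of exon, with the exons of all annotated transcripts of a gene merged. Mbp has 16 annotated transcripts, Olig1 and Olig2 1 each. A gene with many may be divided by more than the length it expresses, so the order of genes is approximate. On this scale Olig2 had the highest mean of the 9 genes in WT at E12.5, 11.0 ± 2.96 CPM per kb. Its libraries (8.21 to 15.1) lay within those of Pdgfra (4.43 to 20.8, mean 9.69 ± 7.55), and Olig1 was at 2.82 ± 0.591. At PND0 the order on this scale was Olig1 (49.2 ± 10.03 CPM per kb), Olig2 (15.7 ± 0.967), Cnp (8.75 ± 0.931), Pdgfra (7.49 ± 1.46), Sox10 (5.99 ± 1.17), Mbp (5.83 ± 0.431), Cspg4 (3.58 ± 0.482), Nkx2-2 (2.79 ± 0.495) and Mag (0.590 ± 0.338). Libraries of neighbours in that order overlapped from Cnp to Mbp and between Cspg4 and Nkx2-2. Olig1, Olig2 and Mag did not overlap with their neighbours.

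Nkx2-2, a homeodomain factor of the ventral neural tube that later takes part in oligodendrocyte differentiation, lies at chr2:147177546-147194243 on the minus strand. It had the smallest ratio between its highest and lowest WT stage mean of the 9 genes, from a mean of 6.36 ± 1.47 CPM at E16.5 to 9.25 ± 0.889 CPM at E14.5. The fall between those stages was past the threshold (log2 fold change -0.53, SE 0.154, adjusted p 0.00766). From E12.5 to PND0 it had no change past the threshold, at 8.38 ± 2.17 and 8.03 ± 1.42 CPM. Nkx2-2 also marks serotonin neurons of the hindbrain and V3 neurons of the spinal cord. The summed level of 4 serotonin neuron markers was 33.9 to 39.6 CPM in WT at E14.5 and 3.25 to 40.3 CPM at E16.5, so that WT libraries of E16.5 differed widely in it. Its part in the fall of Nkx2-2 was not tested. The antisense gene Nkx2-2os shares 278 nt (9.67%) of its exons, with the same limit on strand.

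Sox10, the transcription factor that drives myelin genes in oligodendrocytes and is also a factor of neural crest and Schwann cells, lies at chr15:79154908-79165240 on the minus strand. In the WT libraries of E12.5 it was at 29.4, 6.38, 3.40 and 5.43 CPM, and at E14.5 at 2.12, 3.01, 1.68 and 3.69 CPM. The first library of E12.5 stood far above the other 3, and the stages overlapped in 1 library each. The fall was past the threshold (log2 fold change -2.10, SE 0.698, adjusted p 0.0308), and was -0.94 (adjusted p 0.0115) without E12.5 WT replicate 1. It was lost without E14.5 WT replicate 1 (adjusted p 0.0643) or replicate 3 (adjusted p 0.0628). Sox10 then rose to 9.65 ± 1.77 CPM at E16.5 (log2 fold change 1.87, adjusted p 3.01e-06) and 18.3 ± 3.58 CPM at PND0 (log2 fold change 0.86, adjusted p 0.000523), with no overlap at either step. Between E12.5 and PND0 the difference of 0.71 was not past the threshold, and it was 1.84 (adjusted p 1.17e-05) without E12.5 WT replicate 1.

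Pdgfra encodes the receptor through which platelet-derived growth factor acts on oligodendrocyte precursors, and it is also a receptor of mesenchyme. It lies at chr5:75152292-75198215 on the plus strand. The WT libraries of E12.5 had 208.7, 78.9, 44.4 and 56.5 CPM, and those of E14.5 had 23.57, 20.99, 22.54 and 24.71 CPM. Every E12.5 library was above every E14.5 library. The log2 fold change was -2.10 (SE 0.486, adjusted p 0.00649), and -1.39 (adjusted p 0.000276) without E12.5 WT replicate 1. Pdgfra then rose to 48.27 ± 1.501 CPM at E16.5 (log2 fold change 1.08, SE 0.0690, adjusted p 4.48e-09) and to 75.1 ± 14.6 CPM at PND0 (0.58, SE 0.118, adjusted p 0.000899).

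Markers of meninges and mesenchyme moved with the early fall of Pdgfra and Sox10. Of 11 such markers, 9 fell from E12.5 to E14.5, where 30.5% of all genes fell, and none rose. Their summed level went from 1554 to 3705 CPM in the WT libraries of E12.5 to 679.5 to 788.7 CPM at E14.5, with no marker at 0. WT replicate 1 of E12.5, the library with the highest Pdgfra and Sox10, had the highest sum. Of 8 tested markers of Schwann cells and neural crest, 3 fell and none rose over the same step, beside the same 30.5% of all genes that fell. Erythroid markers were at 1467 to 7046 CPM at E12.5 and 759 to 984.9 CPM at E14.5, the sum of 4 genes. The part of these cells in the result was not tested. At the 2 later steps, at both of which Pdgfra rose, 1 of the 11 mesenchyme markers rose and 2 fell up to E16.5, and none rose and 4 fell up to PND0, when their sum was 579.6 to 694.8 CPM in WT. Among all genes, 29.3% rose and 28.2% fell up to E16.5, and 26.0% rose and 27.2% fell up to PND0.

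Cspg4 encodes the NG2 proteoglycan of precursors and pericytes and lies at chr9:56865033-56899870 on the plus strand. Its WT level was 12.49 ± 3.697 CPM (E12.5), 14.85 ± 1.359 CPM (E14.5) and 16.1 ± 1.57 CPM (E16.5), with no step past the threshold. The step from E12.5 to E14.5 was past it without E12.5 WT replicate 1 (log2 fold change 0.47, adjusted p 0.00195). Cspg4 rose to 42.8 ± 5.75 CPM at PND0 (log2 fold change 1.35, SE 0.115, adjusted p 4.89e-07). Pericyte markers, 8 in number, summed to 259.6 to 303.6 CPM in WT at E16.5 and 331.9 to 412.9 CPM at PND0. Of them 4 rose and 1 fell, beside 26.0% and 27.2% of all genes. The part of pericytes in the rise of Cspg4 was not tested.

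The 3 genes of the myelin sheath were unlike each other in time. Cnp, which encodes an enzyme of the cytoplasm of myelin (chr11:100574904-100591729, plus strand), fell from 18.3 ± 1.92 CPM at E12.5 to 14.1 ± 0.806 at E14.5 (log2 fold change -0.39, adjusted p 0.00571). It rose to 21.9 ± 2.64 CPM at E16.5 (0.64, adjusted p 3.68e-05) and 31.8 ± 3.39 CPM at PND0 (0.48, adjusted p 0.00274). Its exons share 154 nt with Dnajc7 on the opposite strand. Mbp, the gene of myelin basic protein, went the other way until E16.5. It rose from 24.9 ± 2.32 to 35.4 ± 0.778 CPM at E14.5 (0.49, adjusted p 0.000257) and fell to 23.3 ± 3.76 CPM at E16.5 (-0.60, adjusted p 5.46e-05). It then rose to 49.4 ± 3.65 CPM at PND0 (1.02, SE 0.114, adjusted p 4.64e-06). The Mbp locus also produces golli transcripts, which neurons and other cells make, and counts per symbol do not separate them. Mag, which encodes an adhesion protein of the innermost myelin layer (chr7:30899176-30914873, minus strand), was the lowest of the 9. It stood at 0.506 ± 0.216 CPM at E12.5 and 0.631 ± 0.338 at E14.5, with 41 and 60 counts over the 4 libraries. It rose to 2.002 ± 0.2777 CPM at E16.5 (1.68, SE 0.323, adjusted p 0.000316) and was 2.40 ± 1.38 CPM at PND0, where single libraries ran from 1.16 to 4.21 CPM.

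Olig1, Sox10, Pdgfra and Cnp were the genes that rose at both late steps. The upstream sequences of Pdgfra and Cnp are shown because these members rose together and are the ones of the 4 with an entry in the RefSeq promoter table used (GRCm38.p6), which matched 6 of the 9 genes. Searched on both strands were the E-box CANNTG, the general form bound by basic helix-loop-helix factors, and the Sox-type motifs ACAAAG and ACAATG. Matches are in capitals and do not overlap. Pdgfra is shown at chr5:75152001-75152250 and Cnp at chr11:100574689-100574903, both plus strand and upstream of the annotated gene start.
Pdgfra: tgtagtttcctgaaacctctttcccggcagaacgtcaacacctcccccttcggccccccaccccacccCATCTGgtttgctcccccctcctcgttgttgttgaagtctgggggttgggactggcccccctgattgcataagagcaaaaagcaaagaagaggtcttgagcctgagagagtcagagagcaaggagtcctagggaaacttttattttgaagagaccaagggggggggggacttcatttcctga
Cnp: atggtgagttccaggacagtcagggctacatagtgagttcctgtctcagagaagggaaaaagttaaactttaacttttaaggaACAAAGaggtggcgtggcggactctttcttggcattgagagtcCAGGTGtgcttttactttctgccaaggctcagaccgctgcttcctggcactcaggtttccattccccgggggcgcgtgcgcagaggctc

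Each window held 1 match to CANNTG, a motif present in 66.2% of 32841 promoter windows of 250 bases. The 215 bases of Cnp also held 1 match to ACAAAG, present in 5407 of the windows. ACAATG, present in 10.7%, was in neither of the 2 windows. These matches describe the letters only.

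Genes around the 9 in the pathway moved in 2 directions in WT. Of 14 specification and patterning genes, not all ventral, 11 fell from E12.5 to PND0, 1 rose and 2 were not past the threshold. Among all genes tested 36.4% fell. The median log2 fold change of the list was -1.96, beside -0.05 over all genes tested. Dbx1, a patterning factor of the intermediate neural tube, fell from 49.7 ± 11.2 to 0.543 ± 0.359 CPM (log2 fold change -6.48, adjusted p 6.25e-08). Olig3, the dorsal relative of Olig1 and Olig2, fell from 16.1 ± 7.49 to 0.365 ± 0.379 CPM (-5.52, adjusted p 4.73e-06). Irx3, a homeodomain factor of the neural tube, fell from 67.2 ± 17.2 to 8.83 ± 2.96 CPM (-2.93). Sox8, the relative of Sox10 and the exception of the list, rose from 12.4 ± 1.68 to 30.2 ± 5.03 CPM (1.28, adjusted p 1.41e-05).

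Of 12 hedgehog signalling genes (Shh is on both lists), 10 fell over the same interval and none rose, beside the same 36.4% of all genes, with a median of -1.89. Gli3, a transcription factor of the pathway, fell from 128.3 ± 15.5 to 14.9 ± 2.73 CPM (-3.1, adjusted p 4.44e-08). Shh, the ligand, fell from 13.97 ± 2.034 to 2.54 ± 0.665 CPM (-2.46), and Gas1, a co-receptor, fell from 126.6 ± 32 to 23.6 ± 2.17 CPM (-2.43). By step, 8 fell and none rose up to E14.5, 10 fell and 1 rose up to E16.5, and 5 fell and 1 rose up to PND0, with medians of -0.46, -1.0 and -0.30. The shares of all genes that fell at these steps were 30.5%, 28.2% and 27.2%. The hedgehog genes that fell in the middle step included Gli2, from 54.11 ± 3.001 to 15.3 ± 2.99 CPM (-1.82, adjusted p 9.15e-09).

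Of 22 further genes of precursors, 21 were tested from E12.5 to PND0, of which 14 rose, 4 fell and 3 were not past the threshold, with a median of 0.73. Among all genes tested, 34.5% rose and 36.4% fell. Bcan, a proteoglycan of the brain matrix, rose from 6.74 ± 4.88 to 160.5 ± 5.60 CPM (4.57, adjusted p 1.09e-06). Lhfpl3, a precursor marker, rose from 2.53 ± 0.682 to 42.4 ± 5.36 CPM (4.06, adjusted p 3.90e-08). Gpr37l1, a receptor of glia, had no count in WT at E12.5 and reached 3.18 ± 1.13 CPM at PND0. Among those that fell were Chd7, a chromatin remodeller, from 207.9 ± 36.1 to 51.2 ± 11.1 CPM (-2.02), and Vcan, a matrix proteoglycan, from 454.5 ± 87.0 to 137.3 ± 7.61 CPM (-1.73). Gpr17, a receptor of precursors on the way to differentiation, rose at both late steps, from 1.98 ± 0.591 to 9.35 ± 3.01 and then 31.2 ± 6.12 CPM. Several of these genes, Bcan and Vcan among them, are also made by other brain cells.

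Among the 5 platelet-derived growth factor ligands and receptors besides Pdgfra, Pdgfa and Pdgfb rose from E12.5 to PND0 and the other 3 were not past the threshold. Over this interval 34.5% of all genes rose. Pdgfa, a ligand of the Pdgfra receptor, went from 17.6 ± 7.50 to 43.0 ± 7.35 CPM (1.29, adjusted p 0.00122), and it rose at the same late steps as Pdgfra. Of 7 factors that hold back differentiation, 2 rose and 3 fell, beside 34.5% and 36.4% of all genes. Lingo1, a membrane protein of neurons and glia, rose from 43.3 ± 9.50 to 248.1 ± 24.4 CPM (2.52), and Hes1 and Hes5, effectors of Notch, fell by 2.01 and 1.97 on the log2 scale.

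Of 22 genes of committed and myelinating cells, 15 passed the filter on low counts for E12.5 against PND0, of which 10 rose, 1 fell and 4 were not past the threshold. The shares over all genes tested were 34.5% for a rise and 36.4% for a fall. Mog, a late myelin surface protein, rose from 5.13 ± 1.46 to 23.7 ± 3.56 CPM (2.21, adjusted p 2.49e-06). Gal3st1, the enzyme that makes sulfatide, rose from 1.02 ± 0.614 to 5.63 ± 0.428 CPM (2.49, adjusted p 0.000101). Gpr37, a receptor of oligodendrocytes, rose from 3.71 ± 0.979 to 14.4 ± 2.06 CPM (1.97). Nkx6-2, the 1 gene of the list that fell, is on the specification list as well and went from 7.25 ± 1.28 to 1.42 ± 0.709 CPM (-2.37). Those that did not pass the filter included Mobp, at 0.174 ± 0.269 CPM at PND0, and Opalin, which had no count in WT at PND0. Both are genes of mature myelin, named here after their values were seen. Which cells of the brain made the RNA of this list was not tested.

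**Figure D2:**
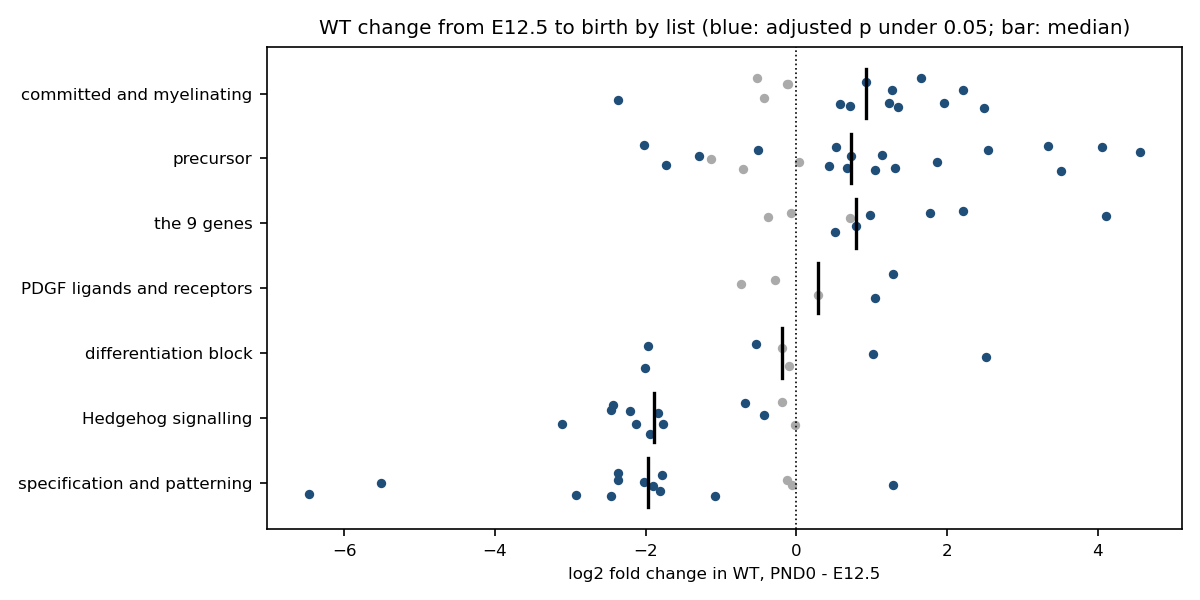
Log2 fold change from E12.5 to PND0 in WT for each tested gene of 7 lists, with blue points past the adjusted p threshold, gray points not past it, and a black bar at the list's median. The medians run from -1.96 for the specification list to 0.93 for the committed and myelinating list. Gpr37l1, which had no count at E12.5, counts in its list's median but is not drawn.

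Against these courses, the KO libraries differed from WT in 1 of the 36 comparisons of the 9 genes over the 4 stages. That was Olig1 at E14.5, 1 of 9 genes called where 0.527% of all genes were (0.308% lower). It was also the 1 member with an unadjusted p under 0.05 at that stage, against 8.73% of all genes. At E12.5 none of the 9 was past the threshold in edgeR's test, where 0.0177% of all genes were, and none was in DESeq2. At an unadjusted p of 0.05, 2 of the 9 were under it at E12.5, against 4.70% of all genes. At E16.5 none of the 9 was past the threshold in edgeR (0.0462% of all genes) or DESeq2, and none had an unadjusted p under 0.05, against 11.5% of all genes. The median log2 fold change of the 9 was -0.19 (E12.5), -0.05 (E14.5), 0.03 (E16.5) and -0.15 (PND0), beside 0 over all genes tested at each stage. At PND0 none of the 9 was past it in edgeR (1.44% of all genes) or DESeq2, and 2 had an unadjusted p under 0.05, against 18.0% of all genes.

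Olig1 at E14.5 was at 14.7, 15.2, 11.9 and 15.9 CPM in WT and at 10.8, 10.8, 10.2 and 10.3 CPM in KO. All 4 KO libraries lay below all 4 WT libraries, a separation that 2.61% of all genes had. The means were 14.4 ± 1.73 and 10.5 ± 0.322 CPM, a log2 fold change of -0.45 (SE 0.101, adjusted p 0.0155). DESeq2 gave -0.46 with an adjusted p of 0.00791. The value stayed between -0.53 and -0.41 when single libraries were left out, and the adjusted p then ran from 0.0032 to 0.125, above 0.05 without WT replicate 1 (0.0695), WT replicate 4 (0.125), KO replicate 1 (0.0548) or KO replicate 4 (0.0537). With all 32 libraries in 1 fit it was -0.46 with an adjusted p of 1. The ribosomal RNA gene CT010467.1 took 2.68% and 2.55% of the counts in KO replicates 3 and 4 and 0.869% to 1.17% in the other 6 libraries of the stage, and with its level as a covariate Olig1 was at -0.43 (adjusted p 0.0614). In KO replicates 1 to 4 that share was 1.03%, 0.869%, 2.68% and 2.55%, and Olig1 was at 10.8, 10.8, 10.2 and 10.3 CPM. The WT range of the share was 1.04% to 1.17%. The part of ribosomal RNA in the Olig1 difference was not tested.

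Olig2, the neighbour of Olig1, was at 24.6 ± 2.35 CPM in WT and 23.7 ± 0.927 CPM in KO at E14.5 (log2 fold change -0.05, SE 0.0750, adjusted p 0.916). At the other stages Olig1 was not past the threshold. It was 6.09 ± 1.28 and 4.78 ± 1.11 CPM at E12.5 (-0.38, SE 0.210), 40.6 ± 7.13 and 41.7 ± 7.87 CPM at E16.5 (0.03, SE 0.169) and 106.4 ± 21.7 and 106.6 ± 15.2 CPM at PND0 (0.01, SE 0.138). Libraries of WT and KO overlapped at these 3 stages. Whether the KO effect differed between stages was tested for all genes in 1 fit. None of the 9 was past the threshold in edgeR, where 0.0256% of all genes were, or in DESeq2. Sox10 (p 0.0185, adjusted 0.289) and Cspg4 (p 0.0122, adjusted 0.266) were under an unadjusted 0.05, as were 13.5% of all genes, and without E12.5 WT replicate 1 their adjusted p was 0.657 and 0.544. Olig1 had an adjusted p of 0.432 in this test. Over all genes, the calls of the test went from 5 to 797 without E12.5 KO replicate 1, and the values of the 9 in that fit are not given here.

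**Figure D3:**
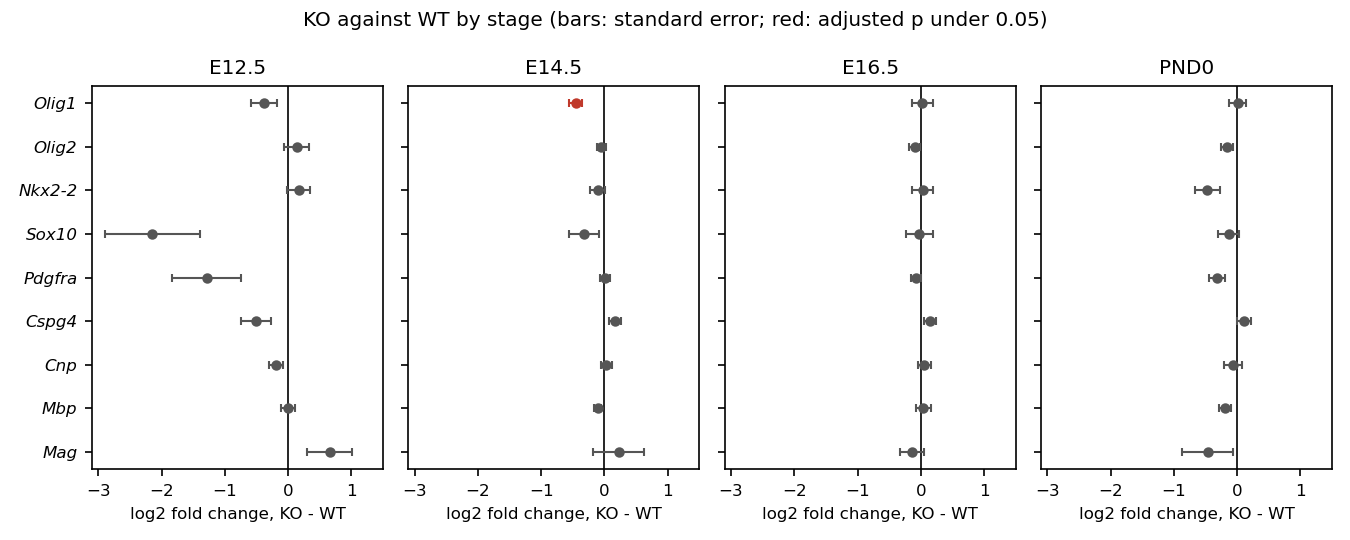
Log2 fold change of KO against WT for each of the 9 genes at each stage, with standard errors as bars and the value past the adjusted p threshold in red. Olig1 at E14.5 is the red point, at -0.45, and Sox10 and Pdgfra at E12.5 have the widest bars.

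At E12.5 the widest differences were those of Sox10 and Pdgfra. Besides WT replicate 1, KO replicate 1 stood apart at this stage, with 5.64% of its counts in the ribosomal RNA gene against 0.191% to 0.376% in the other 7 libraries. Its chi-square per degree of freedom was 110.8 to 114.7 against the other KO libraries, which differed from each other by 5.57 to 13.8. Sox10 was at 29.4, 6.38, 3.40 and 5.43 CPM in WT and 5.25, 1.07, 1.44 and 2.66 CPM in KO. The groups overlapped, and the log2 fold change of -2.15 (SE 0.753) had an unadjusted p of 0.0181 and an adjusted p of 0.875. Without WT replicate 1 it was -1.0 (adjusted p 1), and without KO replicate 1 it was -2.72 (adjusted p 0.561). Pdgfra was at 208.7, 78.9, 44.4 and 56.5 CPM in WT and 57.3, 23.2, 20.9 and 62.0 CPM in KO. Here too the groups overlapped, with a value of -1.29 (SE 0.546, unadjusted p 0.0421, adjusted p 0.875) that was -0.57 (adjusted p 1) without WT replicate 1 and -1.5 (adjusted p 0.561) without KO replicate 1.

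The sum of the mesenchyme markers also varied among these libraries. It was 3705, 2413, 1554 and 2084 CPM in WT and 2622, 753.0, 820.0 and 2916 CPM in KO. All 11 had a negative log2 fold change, with a median of -0.41 beside 0 for all genes. None was past the threshold in edgeR or in DESeq2, and 1 had an unadjusted p under 0.05 in edgeR, as did 4.70% of all genes. No marker was at 0 in any library. KO replicates 2 and 3, with the lowest sums, also had the lowest Pdgfra and Sox10, while KO replicate 4 had the second highest sum and 2.66 CPM of Sox10. Hindbrain and spinal cord markers, 17 genes of which 3 were tested, summed to 42.6 CPM in WT replicate 1 and to 2.27 to 16.6 CPM in the other 7 libraries, where 4 to 12 of them had no count. Schwann cell and neural crest markers summed to 87.6 to 141.0 CPM in WT and 92.5 to 124.5 CPM in KO, and 7 of 8 tested had a negative value. The part of these cells in the differences of Sox10 and Pdgfra was not tested.

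**Figure D4:**
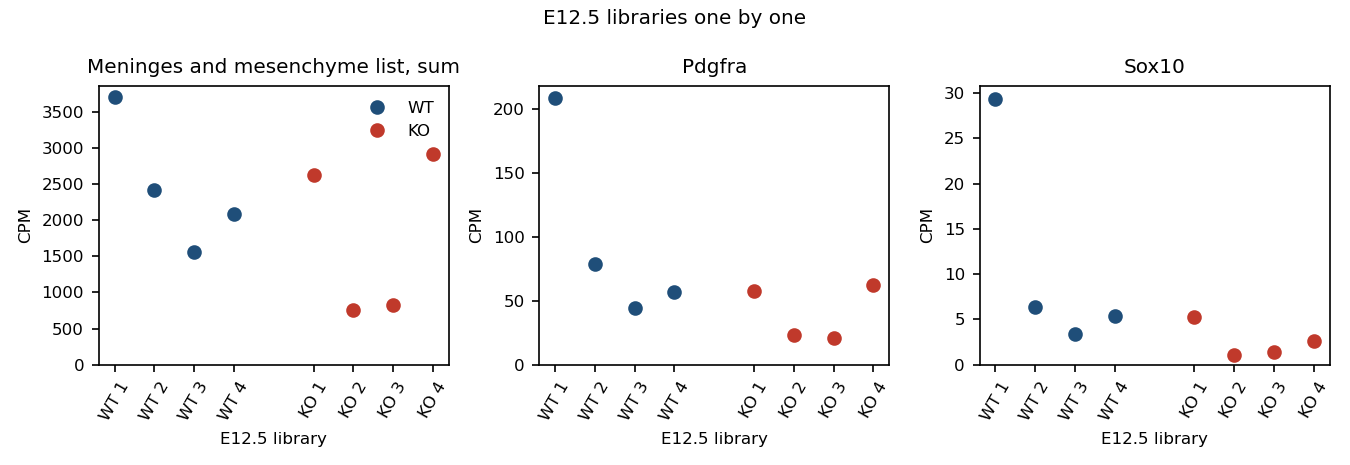
CPM in each of the 8 libraries of E12.5 for the sum of 11 meninges and mesenchyme markers, Pdgfra and Sox10, with WT in blue and KO in red. WT replicate 1 is highest and KO replicates 2 and 3 are lowest in all 3 panels.

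The other members at E12.5 had smaller differences, none past the threshold. Cspg4 was at 12.49 ± 3.697 CPM in WT and 8.94 ± 1.92 in KO (log2 fold change -0.51, SE 0.233), and -0.27 without WT replicate 1. Mag was at 0.506 ± 0.216 and 0.834 ± 0.235 CPM (0.65, SE 0.362), from 41 and 50 counts. Olig2, Nkx2-2, Cnp and Mbp lay between -0.19 and 0.17 on the log2 scale, with standard errors from 0.104 to 0.203.

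At E14.5 and E16.5 the spread between libraries, taken over all genes tested, was narrower than at E12.5. Apart from Olig1 and 2 genes of low count, Sox10 (-0.32, SE 0.242) and Mag (0.22, SE 0.408), the members lay between -0.11 and 0.17 at E14.5. At E16.5 all 9 lay between -0.14 and 0.15, with standard errors up to 0.217 for Sox10. Pdgfra, for example, was at 23.0 ± 1.58 CPM in WT and 23.1 ± 1.83 in KO at E14.5, and at 48.27 ± 1.501 and 46.05 ± 6.606 CPM at E16.5. WT replicate 1 of E16.5 stood apart, with 3.75% of its counts in the ribosomal RNA gene against 0.356% to 0.626% in the other libraries of the stage. Its chi-square per degree of freedom was 41.8 to 43.1 against the other WT libraries, which differed from each other by 6.24 to 14.7. Hindbrain and spinal cord markers summed to 17.6 CPM in WT replicate 2 and to 0.658 to 0.831 CPM in WT replicates 1, 3 and 4.

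At PND0 the 2 genes with the smallest p were Nkx2-2 and Pdgfra. Nkx2-2 was at 6.14, 9.55, 8.45 and 7.97 CPM in WT and 6.495, 6.202, 5.796 and 4.617 CPM in KO. One WT library lay among the KO libraries, and the log2 fold change was -0.47 (SE 0.194, unadjusted p 0.0282, adjusted p 0.211). Pdgfra was at 76.5, 56.7, 92.4 and 74.8 CPM in WT and 57.3, 67.2, 59.1 and 58.0 CPM in KO. Again 1 WT library was below the KO libraries, and the value was -0.31 (SE 0.123, unadjusted p 0.0222, adjusted p 0.19). Mbp (-0.19, SE 0.0972), Olig2 (-0.15, SE 0.0967), Mag (-0.47, SE 0.400), Sox10 (-0.13, SE 0.164), Cnp (-0.07, SE 0.138) and Cspg4 (0.11, SE 0.114) were not past the threshold either.

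The PND0 libraries differed in hindbrain and spinal cord markers. The 17 genes summed to 1.74 to 11.2 CPM in WT and 0.240 to 0.594 CPM in KO, with 6 to 15 of them without a count in a WT library and 15 or 16 in a KO library. Slc6a5, the glycine transporter of hindbrain and spinal cord neurons and the only 1 of the 17 that was tested, was at 3.35 ± 2.19 CPM in WT and 0.378 ± 0.120 CPM in KO and fell by 3.14 on the log2 scale (SE 0.520, adjusted p 0.012). Its adjusted p was 0.054 without WT replicate 3, 0.0558 without KO replicate 1, 0.0787 with all 32 libraries in 1 fit and 0.693 with the ribosomal RNA covariate. All 4 serotonin neuron markers and all 4 tested markers of motor and V3 neurons had negative values, none past the threshold in edgeR or DESeq2 and none with an unadjusted p under 0.05. Nkx2-2 and Olig2 are also expressed in those regions, and the part of the markers in their values was not tested.

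Among the pathway lists, 6 calls were made in KO. At E14.5, 3 of 12 hedgehog genes fell, where 0.308% of all genes did, and none rose, with a median of -0.09 beside 0 for all genes. Ptch1, the hedgehog receptor and a target of the pathway, went from 91.8 ± 2.63 to 80.4 ± 5.12 CPM (log2 fold change -0.19, adjusted p 0.0349). Gli3 went from 84.6 ± 5.46 to 73.4 ± 2.64 CPM (-0.20, adjusted p 0.0257), and Cdon, a co-receptor, from 159.4 ± 5.32 to 143.8 ± 1.82 CPM (-0.15, adjusted p 0.0394). Olig3, 1 of 14 specification genes, fell from 7.55 ± 1.01 to 5.11 ± 0.616 CPM (-0.55, adjusted p 0.0486). Sox4, 1 of 7 factors that hold back differentiation, rose from 1371 ± 22.6 to 1499 ± 28.0 CPM (0.13, adjusted p 0.00622). All 5 kept their direction under the alternatives, and each lost its call with all 32 libraries in 1 fit (adjusted p 1) and without WT replicate 4 or KO replicate 1, with adjusted p from 0.0567 to 0.237 in those leave-outs. Cdon and Olig3 were the least stable, lost in all leave-outs but that of WT replicate 2 (adjusted p up to 0.249) and with the ribosomal RNA covariate (0.125 and 0.0998). Gli3 was also lost without WT replicate 3 and KO replicates 2 and 4, and Ptch1 without WT replicate 1 and KO replicates 2 and 4.

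At PND0, 1 of the 12 hedgehog genes was called, where 1.44% of all genes were. Ptch1 fell, with 70.2 ± 7.61 CPM in WT and 38.5 ± 5.45 CPM in KO (-0.86, SE 0.112, adjusted p 0.00248), and the median of the list was -0.15. Its adjusted p was 0.319 with the ribosomal RNA gene as a covariate, at a value of -0.89. These are the PND0 libraries that differed in hindbrain and spinal cord markers, and the part of that difference in Ptch1 was not tested. In edgeR's test of whether the KO effect differed between stages, Ptch1 was not past the threshold (p 0.000748, adjusted p 0.142). Its KO effect at E14.5, E16.5 and PND0 differed from that at E12.5 by 0.0056, -0.0042 and -0.67 on the log2 scale. At E12.5 none of the genes of these 6 lists was past the threshold in edgeR. An unadjusted p under 0.05 was seen there for 2 of 14 specification genes, 1 of 20 precursor genes and 2 of 12 hedgehog genes (4.70% of all genes). At E16.5 none was past the threshold either. There 1 of 7 genes that hold back differentiation, 3 of 18 committed cell genes and 2 of 12 hedgehog genes had an unadjusted p under 0.05 (11.5% of all genes). The lists of precursor genes, of platelet-derived growth factor ligands and receptors, and of committed and myelinating cells had no gene past the threshold at any stage, with unadjusted p under 0.05 for 6 of 18, 1 of 5 and 3 of 16 tested genes at E14.5 (8.73% of all genes) and for 2 of 21, 0 of 5 and 1 of 18 at PND0 (18.0% of all genes). DESeq2 called 1 precursor gene lower at PND0 and otherwise no gene of these 3 lists, and no gene of the 6 lists at E12.5 or E16.5. Their medians at PND0 were -0.13, 0.09 and -0.19, beside 0 for all genes.

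Over all 32 libraries, the genes whose log2 CPM followed each member most closely were picked by Pearson's r among 17653 genes. The libraries share stages, so r mixes the course over time with differences between libraries of a stage. It is given as a description. Olig1 had the closest companions, Stk32c and Cdkl2 (r 0.985 each) and Matk (0.984). Stk32c, a kinase gene, rose in WT from 10.5 ± 2.72 CPM at E12.5 to 50.6 ± 4.81 at PND0. For Cspg4 they were Gaa (0.977), Timp2 (0.975) and Pcx (0.974), and for Mbp Trim62 (0.949), Rab36 (0.947) and Ogdh (0.936). Trim62 had the same dip as Mbp at E16.5, with 52.6 ± 2.96 CPM at E14.5 and 29.0 ± 4.57 at E16.5.

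For Sox10, Igfbp3 (0.941) and Kctd12 (0.925) were among the closest, and for Pdgfra the closest were Igf1 (0.934), Fbln5 (0.933) and Lmna (0.925). Igf1 and Igfbp3 were, like both members, lowest in WT at E14.5, at 5.84 ± 1.56 and 17.6 ± 0.890 CPM. Like both members they also varied widely between the WT libraries of E12.5, at 30.5 ± 27.2 and 32.1 ± 22.6 CPM. Cnp was nearest to Plekhb1 (0.938), Gpr17 (0.930) and Met (0.928). Mag was nearest to Cend1 (0.866), Frs3 (0.864) and 2210016L21Rik (0.858). Olig2 and Nkx2-2 had the weakest nearest neighbours, Dtx4 (0.819), Rasgrp1 (0.785) and Srd5a1 (0.779) for Olig2 and Lhx1 (0.802), Id4 (0.799) and Dpysl4 (0.797) for Nkx2-2. Between members, r ran from -0.66 for Nkx2-2 with Sox10 to 0.87 for Olig1 with Cspg4.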

How the data were processed

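The authors deposited 1 table of raw counts per stage, with 8 libraries each, per the file headers. Per the submitters' processing notes, reads were processed with HISAT2, SAMtools, featureCounts and DESeq2 on build mm10 (GRCm38). Versions and the strand setting are not given in the sources used here. Per the labels, RNA was enriched for polyadenylated transcripts and sequenced as read pairs of 150 bases.

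Each comparison was fitted on its own 8 libraries with edgeR 4.0.16 in R 4.3.3: libraries were scaled by TMM, genes were kept by filterByExpr with a minimum count of 10 and a minimum total of 15, and quasi-likelihood F tests with robust dispersions were followed by Benjamini-Hochberg adjustment over all genes tested, with a threshold of 0.05. A fit of all 32 libraries tested whether the KO effect varied with stage. A positive log2 fold change means more in KO, or more at the later stage. Log2 CPM used a prior count of 2. The code was tested on simulated data. Of the symbols, 53180 (96.18%) matched 1 gene model of GENCODE M21, which gave positions and exon lengths.

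The 9 genes and the lists were chosen with earlier results of these data known. Named besides the 9 were list genes past the threshold in KO, per list up to 3 rises and 3 falls in a WT comparison (at least 1 CPM in a group), the 3 genes most like each member (1 is not reported here), and Dhcr7. Alternatives were RLE size factors, no filter, DESeq2 1.42.0, length offsets, a replicate block, all libraries in 1 fit, covariates for ribosomal RNA and sex genes, and leaving out each library. No 2 of the 48 library pairs within groups were copies (chi-square per degree of freedom 2.90 to 114.7).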

Additional observations from a re-analysis of the deposited data

Results flagged for a closer look

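In 5 of 72 groups of 4 libraries, 1 library lay far from the other 3, measured by its gap to the nearest one as a share of the range, by Dixon's 95% criterion. Chance gives about 1 in 20 groups, or 3.6 here. Sox10 in E12.5 WT replicate 1 was at 29.4 CPM, with the next library at 6.38. Cspg4 in the same library was at 17.97 CPM, with the next at 11.3. Cspg4 in E14.5 KO replicate 1 was at 14.2 CPM, below the other 3, the nearest at 17.3. Nkx2-2 in E16.5 KO replicate 3 was at 6.78 CPM, above a nearest value of 6.47, in a group with a narrow range. Mag in E14.5 WT replicate 3 was at 1.13 CPM, above a nearest value of 0.504.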

How the results depend on the processing

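The call of Olig1 at E14.5 depended on the setting: the number of the 9 genes past the threshold went from 1 to 0 with all 32 libraries in 1 fit and with the ribosomal RNA covariate, and ran from 0 to 1 when single libraries were left out. The cause was not tested. RLE size factors, no filter, DESeq2, length offsets, the sex-gene covariate and the replicate block kept it at 1. The replicate block changed no KO call, and in WT it moved Sox10 from E12.5 to PND0 to 1.21 (adjusted p 0.0445), so that 7 genes were past the threshold there in place of 6. The samples share only a number: in no comparison was the correlation of deviations above 0.1 in all 4 pairs, and it ran from -0.18 to 0.38 at E12.5. Sox10 from E12.5 to E14.5 was lost without a filter (adjusted p 0.106), and Sox10 and Pdgfra from E16.5 to PND0 were lost with all libraries in 1 fit (adjusted p 0.0886 and 0.121). DESeq2 gave no adjusted p for Sox10 from E12.5 to PND0. Over all genes, KO calls differed more: 3 at E12.5 (30 with DESeq2, 52 with all libraries in 1 fit, 6 with the block), 94 at E14.5 (146 without a filter, 4 with all libraries in 1 fit), 8 at E16.5 (150 with DESeq2, 233 without a filter, 3 with all libraries in 1 fit, 5 with the block), 250 at PND0 (921 with DESeq2, 1091 without a filter, 1205 with all libraries in 1 fit) and 5 by stage (346 with DESeq2, 11 without a filter, 0 with the block). Length offsets gave 63 and the ribosomal RNA covariate 2 at PND0, and the sex-gene covariate 4 at E16.5. Leaving out 1 library moved the E14.5 count between 52 (without WT replicate 4) and 155 (without WT replicate 2), the PND0 count as low as 35 (without WT replicate 3) and the count by stage as high as 797 (without E12.5 KO replicate 1).

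Sign changes were seen only in values that were not past the threshold. Mbp at E12.5 was 0.036 with length offsets, 0.022 with all libraries in 1 fit and 0.038 with the ribosomal RNA covariate. With that covariate Nkx2-2 at E16.5 was -0.085 and Sox10 0.10, and at PND0 Olig1 was -0.35, Sox10 0.036, Cspg4 -0.034 and Cnp 0.034. With the sex-gene covariate at E16.5 Olig1 was -0.089, Nkx2-2 -0.050 and Mbp -0.033. With length offsets Olig1 at PND0 was -0.089 and Nkx2-2 from E12.5 to PND0 in WT was 0.0060.

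Leaving out single libraries gave these ranges of KO against WT. At E12.5 Mbp ran from -0.044 to 0.057. At E14.5 Pdgfra ran from -0.035 to 0.050, Olig2 from -0.11 to 0.00060 and Cnp from -0.0088 to 0.058. At E16.5 Nkx2-2 ran from -0.094 to 0.13, Sox10 from -0.16 to 0.16, Olig1 from -0.056 to 0.15, Cnp from -0.025 to 0.11 and Mbp from -0.041 to 0.15. At PND0 Olig1 ran from -0.10 to 0.10 and Cnp from -0.17 to 0.037. In WT, Nkx2-2 ran from -0.015 to 0.27 and Mag from -0.15 to 0.46 from E12.5 to E14.5, Olig2 from -0.073 to 0.039 from E14.5 to E16.5, and Mag from -0.22 to 0.44 from E16.5 to PND0. From E12.5 to PND0 Pdgfra ran from -0.59 to 0.33 and Nkx2-2 from -0.22 to 0.090. Low counts limit Mag before E16.5 and Sox10 at E14.5.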
